A study of Mus musculus with 3 samples.

Results

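The genes described here encode the RAS to MAP kinase signalling chain and its brakes: 46 named genes for RAS proteins, RAS exchange factors, RAF kinases, MAP kinase kinases, MAP kinases, MAP3 kinases, RSK and MSK kinases, dual specificity phosphatases, Sprouty and Spred proteins and RAS GTPase activators. They were chosen by name and pathway role, and all 46 were found among 21887 protein-coding genes of the RefSeq table on GRCm38.p6, the assembly that mm10 names. Accessible chromatin around them was read by ATAC-seq, in which a transposase cuts open DNA, in mouse hematopoietic stem cells (HSCs) treated with the solvent DMSO, with 200 nM AZD2014 or with 1 µM rapamycin. AZD2014 blocks the kinase site of mTOR, and rapamycin binds mTOR through an FKBP protein at another site. All 3 libraries came from adult, poly(I:C)-treated mice of the genotype Mx1-Cre-/-;mTORflox/flox, so the floxed alleles had no Mx1-driven Cre to delete them and the labels call the cells mTOR WT. The cells were sorted by FACS and cultured in StemSpan SFEM, and 50000 cells went into each library. The labels state neither the length of the treatment nor the number of mice pooled. Each condition had 1 library, so there was no replicate check, and the differences below carry no replicate error and no test.

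RAS proteins are GTPases that switch on when an exchange factor such as SOS loads GTP, and switch off when a GTPase activator such as neurofibromin speeds its hydrolysis. Active RAS recruits RAF kinases, which phosphorylate MAP kinase kinases, which in turn phosphorylate MAP kinases. The chain carries growth factor and cytokine signals in blood progenitors, RSK and MSK kinases pass it on to ribosomal and chromatin substrates, and dual specificity phosphatases, Sproutys and Spreds are induced by it and dampen it. ATAC-seq peaks record open chromatin at these genes, not transcription or kinase activity.

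The authors' peak lists held 17189 peaks for DMSO, 21321 for AZD2014 and 18233 for rapamycin, each peak with a score of at least 50. Depth is unknown because no read totals accompany the lists, and an absent peak is one that fell short of the authors' threshold in that library. Scores were therefore ranked within a list, and lists were compared after each was shortened to its 17189 highest-scoring peaks, with a percentile rank from 0 to 100, where 100 is the highest score. Both drugs were compared with the same DMSO library. Of the HSC and progenitor markers, Kit, Meis1, Mecom and Hlf had a gene-end peak in every list, Cd34 and Ptprc under AZD2014 alone, and Procr, Slamf1 and Fgd5 in none. Gene-end peaks were also present for the erythroid markers Klf1 and Epor and 2 of 3 megakaryocyte markers (Pf4 and Itga2b) in each list, for no T cell marker in any list, and under rapamycin for Cpa3, Mpo and Ly6c2. The part that the mix of cells had in the results was not tested, and in bulk ATAC-seq a shift in that mix and a change of chromatin within the cells cannot be told apart.

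Most of the pathway's genes were open at a gene end, and open in the same place, in all 3 libraries. A gene-end peak, one lying within 1 kb of the first or last base of a gene, was present for 40 of 46 genes in the DMSO list, 39 in the AZD2014 list and 37 in the rapamycin list. Among all protein-coding genes the shares were 45.97%, 49.5% and 46.9%, in the same order. In all 3 lists together, 37 of the 46 genes had such a peak, against 43.5% of all genes. The 6 genes with none in any list (background 48.5%) were Map2k5, Mapk13, Map3k1, Rps6ka2, Rps6ka4 and Dusp16. For Map2k5, Map3k1, Rps6ka2 and Dusp16 this reflects the range that RefSeq gives the gene, which reaches past the listed transcription start: each had a peak over its listed start in every list. Of 41 genes with a listed start, 37 in the DMSO list, 39 in the AZD2014 list and 37 in the rapamycin list had a peak within 1 kb of it, against 48.5%, 51.8% and 49.5% of 17492 genes. In every list 36 of the 41 had a start peak (background 46.2%), and Mapk12 and Mapk13 were the 2 with none in any list (46.4%).

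Differences in presence were few. No member gained a gene-end peak in a drug list: 0 of 46 had one under AZD2014 and not DMSO (background 4.63%), and 0 under rapamycin and not DMSO (3.05%). Map3k8 was the 1 gene with a gene-end peak under DMSO and not AZD2014 (1.09%). Mapk11, Mapk12 and Map3k8 had one under DMSO and not rapamycin (2.09%). Mapk11 and Mapk12 also had one under AZD2014 and not rapamycin (3.79%), and none was found in the opposite sense (1.21%). Around listed starts alone, Sos2 and Rps6ka4 had a peak under AZD2014 and not DMSO (4.29%), Sos2 under rapamycin and not DMSO (2.92%), and Mapk11 under DMSO and not rapamycin (1.97%). Mapk11 and Rps6ka4 had a start peak under AZD2014 and not rapamycin (3.49%), and no gene had one under DMSO and not AZD2014 (0.966%) or under rapamycin and not AZD2014 (1.12%).

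**Figure D1:**
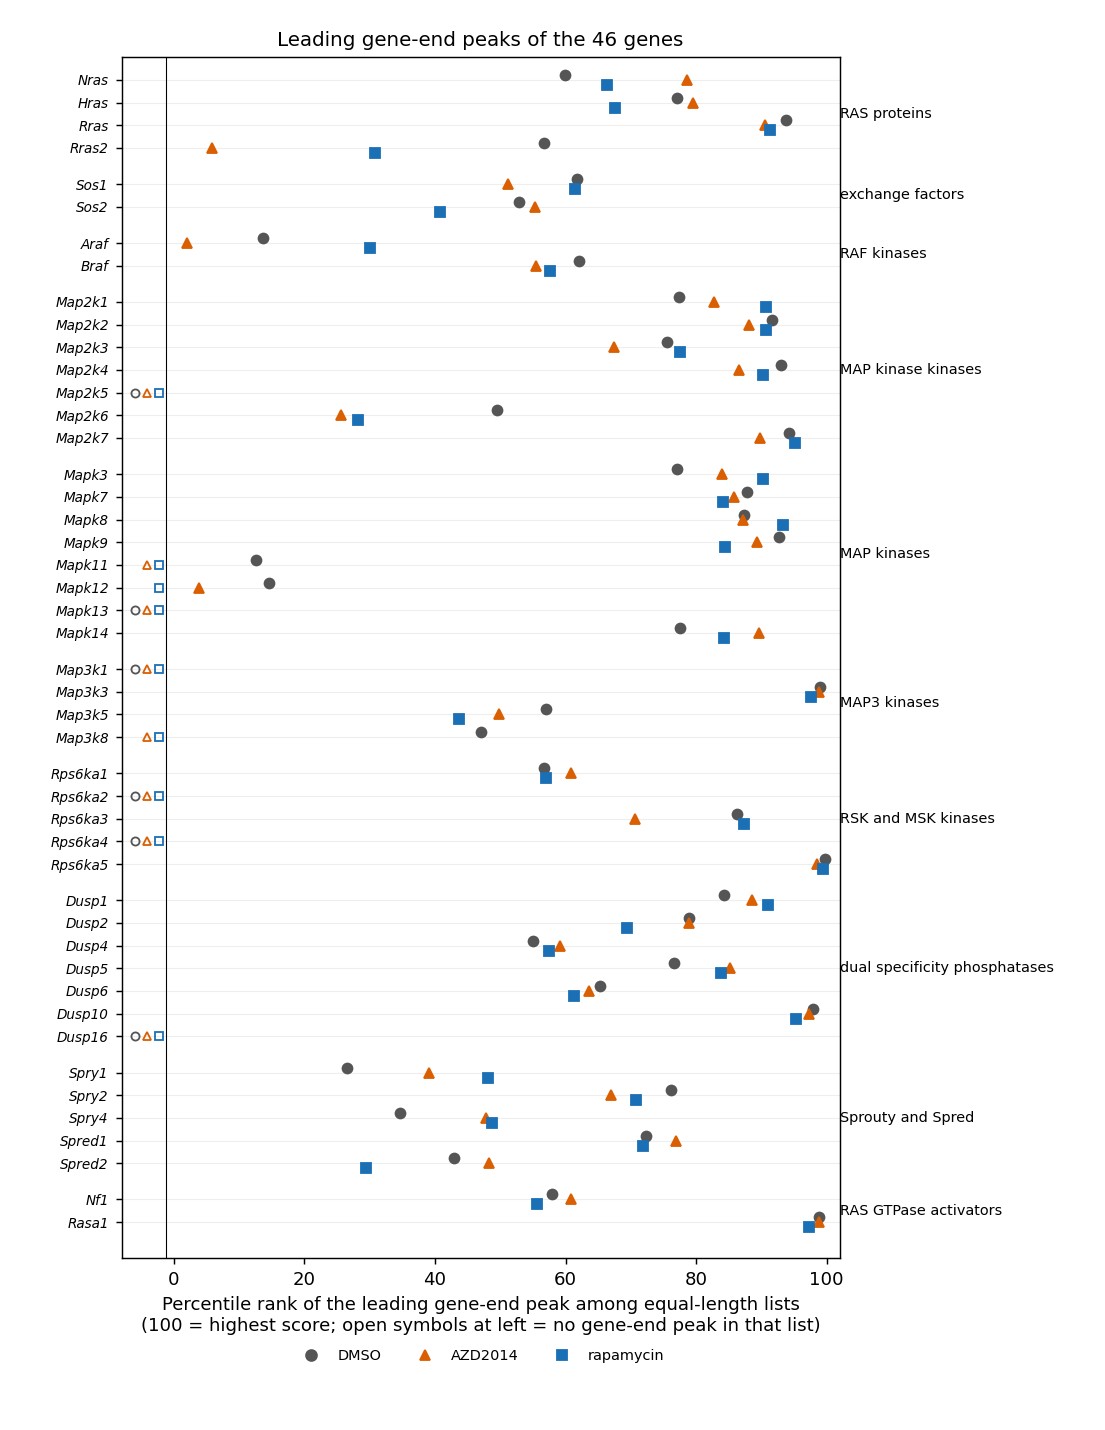
Percentile rank of the highest-scoring gene-end peak of each of the 46 genes (horizontal axis, 100 is the highest score, equal list lengths of 17189 peaks), grouped by role, with 1 symbol per library and open symbols at the left where a list held no such peak. Most symbols of a gene lie close together, Rras2 runs from 56.7 under DMSO to 5.87 under AZD2014, and Rps6ka5, Map3k3, Rasa1 and Dusp10 lie above 95 in every list.

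The sequences at the starts that carry these results are shown next, 300 bases each from RefSeq on GRCm38.p6, from 250 bases before to 50 bases after the listed start, 5′ to 3′ on the gene's strand. Sos2 (chr12:69681803-69682102, minus strand), Rps6ka4 (chr19:6840578-6840877, minus strand) and Mapk11 (chr15:89149557-89149856, minus strand) are shown because the presence of a start peak differed between lists. Rras2 (chr7:114117732-114118031, minus strand) had the largest rank difference, Dusp6 (chr10:99262981-99263280, plus strand) changed which of its peaks led, and Rps6ka5 (chr12:100725071-100725370, minus strand) ranked highest. Dusp1 (chr17:26508423-26508722, minus strand) and Dusp5 (chr19:53528895-53529194, plus strand) hold the response elements described below. Capitals mark matches, on either strand, to the motif letters described after the sequences.
Sos2: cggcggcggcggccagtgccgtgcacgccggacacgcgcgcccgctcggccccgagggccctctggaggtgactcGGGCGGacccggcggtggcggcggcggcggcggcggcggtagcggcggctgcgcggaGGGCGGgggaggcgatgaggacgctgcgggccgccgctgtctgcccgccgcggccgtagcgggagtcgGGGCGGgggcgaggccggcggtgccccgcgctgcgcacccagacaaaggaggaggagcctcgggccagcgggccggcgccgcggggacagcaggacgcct
Rps6ka4: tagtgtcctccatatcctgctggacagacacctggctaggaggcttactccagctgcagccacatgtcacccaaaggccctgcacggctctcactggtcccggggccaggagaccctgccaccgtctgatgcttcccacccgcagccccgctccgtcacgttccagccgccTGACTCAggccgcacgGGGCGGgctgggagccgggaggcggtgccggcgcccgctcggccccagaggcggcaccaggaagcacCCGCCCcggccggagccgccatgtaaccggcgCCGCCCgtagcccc
Mapk11: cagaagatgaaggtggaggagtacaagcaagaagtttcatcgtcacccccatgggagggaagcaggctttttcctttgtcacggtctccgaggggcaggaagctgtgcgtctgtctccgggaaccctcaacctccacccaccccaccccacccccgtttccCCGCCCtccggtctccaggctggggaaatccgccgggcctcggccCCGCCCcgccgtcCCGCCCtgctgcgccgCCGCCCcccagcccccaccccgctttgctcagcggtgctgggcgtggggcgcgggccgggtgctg
Rras2: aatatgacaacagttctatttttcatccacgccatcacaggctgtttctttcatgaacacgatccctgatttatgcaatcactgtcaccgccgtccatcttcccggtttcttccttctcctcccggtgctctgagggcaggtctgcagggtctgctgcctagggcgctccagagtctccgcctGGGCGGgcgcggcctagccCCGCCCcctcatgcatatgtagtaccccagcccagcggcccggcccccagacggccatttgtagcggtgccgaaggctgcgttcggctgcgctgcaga
Dusp6: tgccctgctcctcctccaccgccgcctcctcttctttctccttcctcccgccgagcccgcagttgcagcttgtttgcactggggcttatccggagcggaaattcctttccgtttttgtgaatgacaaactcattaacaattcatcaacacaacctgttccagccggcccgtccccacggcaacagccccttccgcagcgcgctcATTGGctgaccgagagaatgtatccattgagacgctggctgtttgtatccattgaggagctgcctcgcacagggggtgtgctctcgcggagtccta
Rps6ka5: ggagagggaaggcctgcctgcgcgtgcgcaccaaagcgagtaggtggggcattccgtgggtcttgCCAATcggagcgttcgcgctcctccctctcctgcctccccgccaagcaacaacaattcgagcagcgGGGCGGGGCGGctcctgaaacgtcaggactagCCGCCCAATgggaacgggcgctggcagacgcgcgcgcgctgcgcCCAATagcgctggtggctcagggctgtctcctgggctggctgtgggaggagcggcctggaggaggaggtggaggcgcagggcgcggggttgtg
Dusp1: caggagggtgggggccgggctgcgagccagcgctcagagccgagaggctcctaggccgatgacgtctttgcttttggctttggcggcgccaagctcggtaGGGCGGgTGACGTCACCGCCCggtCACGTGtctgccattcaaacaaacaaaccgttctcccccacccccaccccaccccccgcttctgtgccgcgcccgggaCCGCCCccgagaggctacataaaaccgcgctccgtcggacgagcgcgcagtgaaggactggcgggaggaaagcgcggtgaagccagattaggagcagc
Dusp5: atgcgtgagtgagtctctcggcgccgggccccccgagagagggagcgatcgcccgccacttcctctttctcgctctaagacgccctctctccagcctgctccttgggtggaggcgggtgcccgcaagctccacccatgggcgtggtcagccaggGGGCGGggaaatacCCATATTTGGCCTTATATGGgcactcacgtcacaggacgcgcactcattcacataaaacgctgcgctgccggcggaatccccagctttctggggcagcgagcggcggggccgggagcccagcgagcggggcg

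The 41 genes with a listed start had 52 listed promoters of this length. Mapk3, Map3k8, Rps6ka3, Dusp4 and Spry4 are named only. The GC box (GGGCGG, bound by SP factors) occurred in 35 of the 52 promoters, 67.3% against 46.2% of 21263 protein-coding promoters, and in all of those printed above except Dusp6. The CCAAT box (CCAAT) occurred in 21, 40.4% against 38.2%, among them the promoters of Dusp6 and Rps6ka5. The cAMP response element (TGACGTCA), the site of CREB, which MSK kinases phosphorylate, occurred in the promoters of Braf, which held 2 copies, and Dusp1, together 3.85% against 2.23%. In Dusp1 it lay 143 bases before the start, between a pair of GC boxes, and was followed by an E-box (CACGTG), a motif found in 7.69% of these promoters against 7.84%. The CArG box, the site of serum response factor, occurred as 2 neighbouring copies in Dusp5, the 1 gene of the set with it, against 1.52% of all promoters. The AP-1 site (TGANTCA) occurred in Map2k6, Map2k7 and Rps6ka4, 5.77% against 6.99%, the ETS site (CCGGAAGT) in Nf1 alone, 1.92% against 5.15%, and the TATA box (TATAAA) in Map2k6 and Map2k7, 3.85% against 12.6%. The NRF1 site occurred in Map2k2 alone, 1.92% against 1.33%, and the core of the cAMP response element (TGACG), left in lower case above, in 30.8% against 23.6%. The median promoter held 26 CG dinucleotides against 13, with 64.8% G or C bases against 56.3%. A match is a description of letters, not a shown site of binding. Peaks covered all 300 bases of 35 of the 52 promoters in the DMSO list, 39 in the AZD2014 list and 35 in the rapamycin list.

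Among the RAS proteins, the start peak of Rras2 stood lower in both drug lists and the gene-end peak of Nras stood higher. Rras2 encodes a RAS-related GTPase also called TC21. Its start peak had a score of 145 and rank 7445 under DMSO, a score of 73.7 and rank 16181 under AZD2014, and a score of 88.0 and rank 11883.5 under rapamycin. At equal list lengths this put it at percentile 56.7, 5.87 and 30.9, a difference from DMSO of -50.82 points under AZD2014 and -25.82 points under rapamycin. Of the 300 bases printed above, the DMSO peak covered 193, the rapamycin peak 274 and the AZD2014 peak, which ended 43 bp short of the start, 7. Rras2 also had a peak in its gene body, 50646 bp from the start under AZD2014, in both drug lists and not under DMSO. Its score was 52.7 under AZD2014, too low for the equal-length list, and 76.01 under rapamycin, so at equal list lengths the rapamycin list alone held it. Nras stood at percentile 59.98 under DMSO, at 78.6 in the AZD2014 list and at 66.4 in the rapamycin list, and its peak was 419, 876 and 653 bp wide in that order. Hras stood at 77.0, 79.5 and 67.5. Rras, the highest of the group (chr7:45017942-45021646), had ranks of 1073, 1630 and 1506 and 3 window peaks in each list, so the order of the RAS genes was led by Rras in every list.

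The exchange factors differed at the start of Sos2. Sos1 and Sos2 both load RAS with GTP after recruitment through the adaptor Grb2. Over the Sos2 start there was no peak under DMSO, a peak of score 109 at percentile 28.3 under AZD2014 and a peak of score 69.8 at percentile 18.5 under rapamycin, and both drug peaks covered all 300 bases printed above. The highest-scoring gene-end peak of Sos2 lay at the other end of the gene, also within 1 kb of an end of Vcpkmt, and was present in all 3 lists at percentile 52.9, 55.3 and 40.8. A peak in the Sos2 gene body, 27498 bp from the start under DMSO, stood at percentile 53.1 under DMSO and 25.2 under AZD2014, and that under rapamycin stood at 50.4. Thus the start peak appeared in both drug lists while the gene-body peak stood lower under AZD2014. Sos1 (chr17:80393752-80480453) had scores of 165, 186 and 190 at its start, ranks of 6567, 8394.5 and 6628, and 4, 5 and 5 window peaks.

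The RAF kinase genes were open at their starts in every list. Braf (chr6:39603231-39725658), whose product phosphorylates MEK proteins, had scores of 166, 208 and 171 and ranks of 6535, 7647 and 7275, with 2 window peaks in each list. A peak 132534 bp from the Braf start, beyond the far end of the gene, stood 24.18 points higher under AZD2014 than DMSO, at percentile 70.1 against 45.9. Araf (chrX:20797707-20860521) had its start peak at percentile 59.5, 48.0 and 62.2. Its gene-end peak lay 50032 bp upstream of that start under DMSO, near the upstream end of the RefSeq range. It stood at percentile 13.7 under DMSO, 1.99 under AZD2014 and 29.99 under rapamycin. AZD2014 minus rapamycin was -28.00 points there, while the Araf start itself differed by less than 20 points in each comparison.

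In the MAP kinase kinases the start peak of Map2k6 stood lower in both drug lists and that of Map2k5 higher. Map2k6, an activator of p38 kinases (chr11:110399102-110525522), had scores of 122, 103 and 83.8, ranks of 8676.5, 12777 and 12336.5, and 3, 3 and 2 window peaks. Its percentile went from 49.5 under DMSO to 25.7 under AZD2014 (-23.86 points) and 28.2 under rapamycin (-21.29 points). Map2k5, which activates ERK5, was open at its start with scores of 127, 320 and 289, and its percentile went from 51.2 to 72.7 under AZD2014 and 77.5 under rapamycin. Hence the start peaks of Map2k5 and Map2k6 differed from DMSO in opposite directions in the lists of both drugs. Map2k7, an activator of JNK and the highest of the group (chr8:4238740-4247897), had scores of 421, 505 and 520, ranks of 996, 1768 and 827, and 3 window peaks in each list. Map2k1, which encodes MEK1 and phosphorylates ERK, stood at 77.3, 82.7 and 90.8, and its partner Map2k2 at 91.6, 88.1 and 90.7. Map2k4, which activates JNK and p38, stood at 93.1, 86.5 and 90.2, and Map2k3, another p38 activator, at 75.6, 67.5 and 77.5.

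Of the MAP kinase genes, 5 had highly ranked gene-end peaks in every list, and the p38 genes Mapk11, Mapk12 and Mapk13 had weak ones or none. Mapk9, which encodes JNK2 and ranked highest under DMSO (chr11:49846728-49886421), had scores of 397, 499 and 353, ranks of 1248, 1829 and 2680, and 1 window peak in each list. Mapk3 (ERK1), Mapk7 (ERK5), Mapk8 (JNK1) and Mapk14 (p38 alpha) stood at 77.1, 87.8, 87.4 and 77.5 under DMSO, all lower than Mapk9. Under AZD2014 they stood at 84.0, 85.8, 87.2 and 89.6, and under rapamycin at 90.2, 84.2, 93.3 and 84.3.

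Mapk11 and Mapk12, which encode p38 beta and p38 gamma, are neighbours on chromosome 15 and share their window peaks, 4 in the DMSO list, 4 in the AZD2014 list and 2 in the rapamycin list. At the Mapk11 start (gene at chr15:89142482-89149606) the peak had a score of 59.9 and rank 15023.5 under DMSO and a score of 50.8 and rank 21028 under AZD2014, and the rapamycin list had none. The DMSO peak covered 247 and the AZD2014 peak 300 of the bases printed above. The Mapk12 gene-end peak (gene at chr15:89130584-89141577) lay 8894 bp from the start under DMSO, at the other end of the gene, with a score of 61.6 and rank 14670.5, against a score of 71.4 and rank 16534 under AZD2014 and no peak under rapamycin. All of these peaks were near the bottom of their lists, and the Mapk11 peak under AZD2014 was not among that list's 17189 highest scores. Mapk13 (p38 delta) had no gene-end or start peak in any list and at most 1 window peak.

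Mapk14 (chr17:28691342-28748405) had a start peak of score 248, 503 and 352 and rank 3865, 1786 and 2703, and its window held 2 peaks in the DMSO list, 5 in the AZD2014 list and 1 in the rapamycin list. The 3 extra peaks under AZD2014 lay in the gene body with scores of 63.8, 52.1 and 50.6. At equal list lengths the counts were 2, 1 and 1, so the extra peaks were all among the lowest scores of the longest list. At Mapk7 a peak outside the gene, 10507 bp from the start under DMSO, was near the bottom of the DMSO list at percentile 1.59 with a score of 51.2. It stood at 46.7 with a score of 166 under AZD2014 and at 38.2 with a score of 104 under rapamycin, the largest difference from DMSO under AZD2014 among overlapping peaks of the whole gene set that stood higher.

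Of the MAP3 kinases, Map3k8 was open at a gene end in the DMSO list and in neither drug list. Map3k8 encodes TPL2, which activates MEK downstream of inflammatory receptors. Its DMSO peak was 837 bp wide with a score of 115 and rank 9113.5, near the middle of the list, and no AZD2014 or rapamycin peak overlapped it. Of 9114 DMSO peaks with at least that score, 9, or 0.0987%, had no partner in either drug list, a count made after this value was seen. The rapamycin list held a different peak in the Map3k8 gene body, of score 51.4, and the window counts were 1, 0 and 1.

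Map3k3, which encodes MEKK3 and ranked highest among the MAP3 kinases (chr11:106084587-106156656), had a start peak of score 606, 799 and 616 and rank 173, 206 and 403. It had 6 window peaks under DMSO and 4 in each drug list, and this was the 1 gene with at least 2 more peaks under DMSO than AZD2014 (background 0.571%). At equal list lengths Map3k5 and Spred2 joined it, 3 genes in all (background 1.51%). In the windows, 2 pairs of neighbouring DMSO peaks each overlapped a single peak in a drug list: beyond the far end of the gene, DMSO peaks of 472 and 636 bp faced an AZD2014 peak of 1429 bp and a rapamycin peak of 1757 bp. The region beyond the far end stood at percentile 24.5 and 14.0 under DMSO for the separate peaks, 53.9 under AZD2014 and 57.4 under rapamycin. In the gene body, DMSO peaks of 433 and 535 bp stood at percentile 28.9 and 31.4. They faced an AZD2014 peak of 699 bp at 50.6 and a rapamycin peak of 422 bp at 13.1. The AZD2014 peak was wider and higher-ranked than either DMSO peak alone, and it lay within the stretch that the DMSO peaks spanned. The rapamycin peak was narrower and lower-ranked than either.

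Map3k5 encodes ASK1, a kinase of the oxidative stress response, and had 7 window peaks in each list. One of them, in the gene body 4718 bp from the start under DMSO, stood at 58.3 with a score of 151 under DMSO, at 16.5 with a score of 87.4 under AZD2014 and at 16.3 with a score of 67.5 under rapamycin. Its difference of -41.80 points under AZD2014 was exceeded by that of Rras2 alone among overlapping peaks of the gene set below DMSO, and its -42.02 points under rapamycin by none. The Map3k5 gene-end peak stood at 57.0, 49.8 and 43.7. Map3k1, which encodes MEKK1, was open at its start at percentile 28.2, 48.0 and 55.9, and that peak was 548 bp wide under DMSO against 1686 bp under AZD2014 and 1681 bp with rapamycin.

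**Figure D2:**
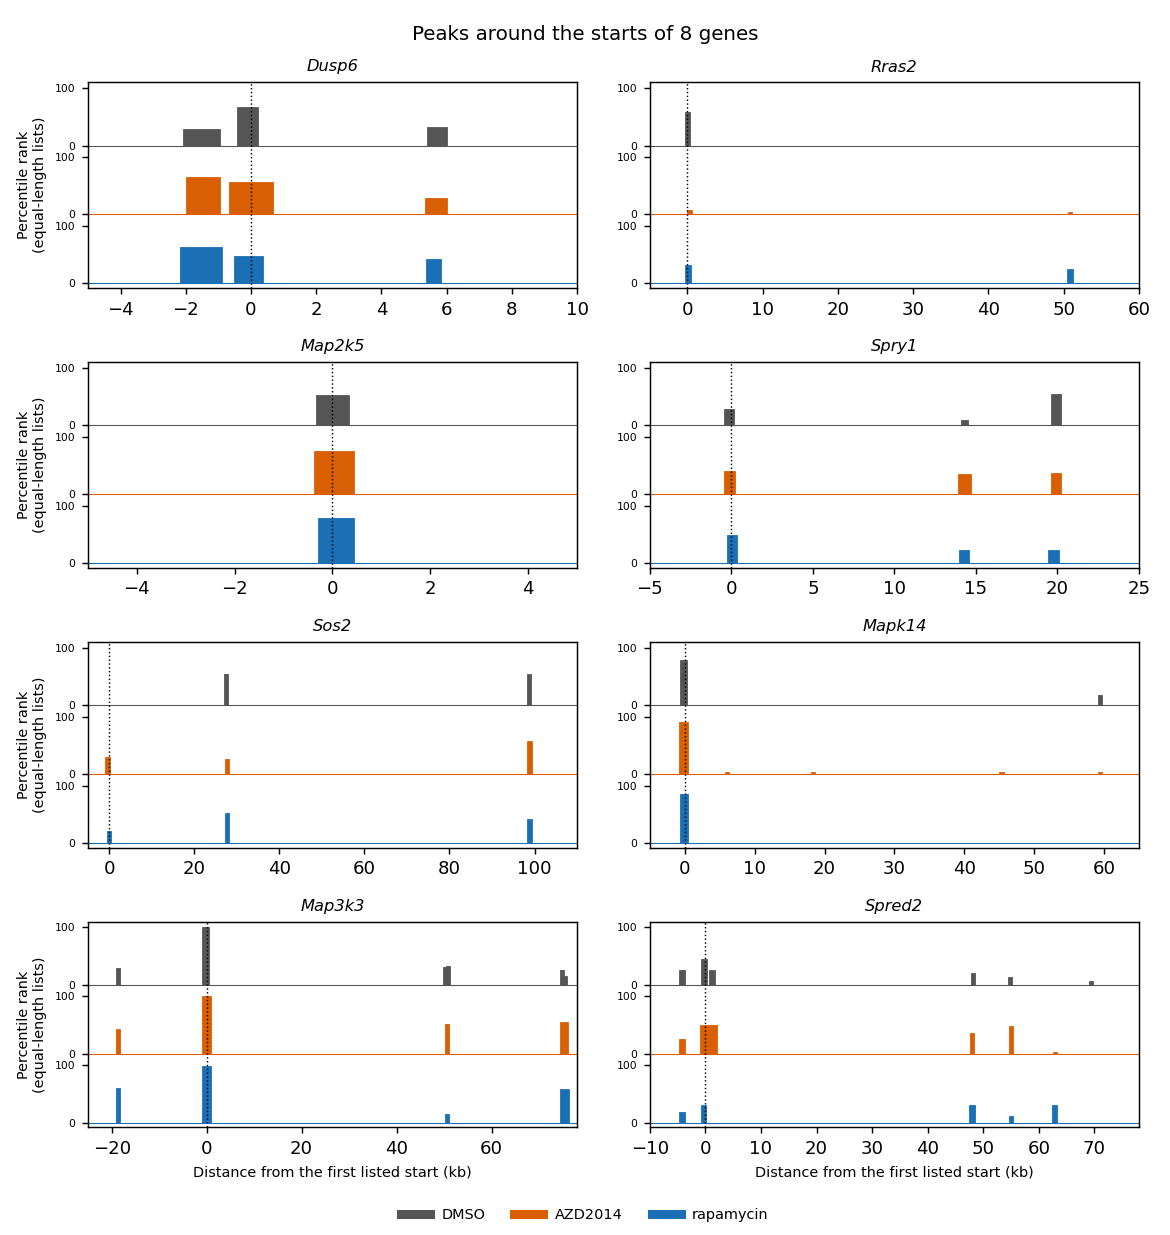
Peaks around the listed starts of 8 genes, placed to scale in kilobases from the first listed start with a minimum drawn width (dotted line, downstream to the right, a different range in each panel), with bar height giving percentile rank at equal list lengths, a sliver of fixed height for peaks outside the equal-length list, and 1 row per library. The Dusp6 upstream peak is taller in the drug rows than in the DMSO row, the Rras2 start peak is lower, Sos2 has a start peak in the drug rows alone, and the paired DMSO peaks beyond the far end of Map3k3 face 1 wide peak.

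RSK and MSK kinases ranged from the highest-ranked peak of the gene set to one of the weakest. Rps6ka5 encodes MSK1, which phosphorylates CREB and histone H3 (chr12:100548439-100725328). Its start peak had scores of 768, 769 and 759 and ranks of 45, 269 and 105, the highest rank of the 46 genes under DMSO and under rapamycin. Under AZD2014 it came after Rasa1 and Map3k3. Rps6ka4 encodes the related MSK2 (chr19:6829084-6842145) and had 0, 2 and 1 window peaks, with a start peak under AZD2014 alone, of score 70.6 at percentile 3.09, which covered 294 of the 300 bases printed above. The RSK genes were all open at a start or a gene end. Rps6ka2 had a start peak at percentile 96.8, 93.8 and 96.5, Rps6ka3 a gene-end peak at 86.2, 70.6 and 87.3, and Rps6ka1 one at 56.6, 60.9 and 57.0. Rps6ka1 (chr4:133847290-133887797) had scores of 145, 239 and 168, ranks of 7452.5, 6726 and 7395, and 2, 5 and 3 window peaks. The 3 AZD2014 peaks of Rps6ka1 with no partner in another list had scores of 52.5, 60.1 and 53.9, and none of them was in the equal-length list.

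The dual specificity phosphatase genes had a start or gene-end peak in every list, and Dusp6 differed in the one that led. Dusp6 removes the activating phosphates of ERK in the cytoplasm and is itself induced by ERK signalling. It had 3 window peaks in each list: one over the start, one 964 bp upstream under DMSO and one beyond the other end of the gene. The start peak had a score of 181 and rank 5957.5 under DMSO, 201 and 7891 under AZD2014, and 123 and 9417.5 under rapamycin, and it covered all 300 bases printed above in each list. The upstream peak had a score of 76.4 and rank 12478.5 under DMSO, 256 and 6264 under AZD2014, and 189 and 6655 under rapamycin. In percentile terms the upstream peak went from 27.4 to 63.6 and 61.3, differences of 36.15 and 33.88 points, while the start peak under rapamycin differed by -20.13 points. The start peak led under DMSO and the upstream peak led under both drugs. Dusp6 was thus the 1 gene of the set whose leading gene-end peaks did not overlap between DMSO and a drug. They overlapped for 38 of 39 genes with AZD2014 and 36 of 37 with rapamycin. This share was not computed over all genes, so how often such a switch occurs elsewhere is not known.

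Dusp10, which acts on JNK and p38 and led this group (chr1:184034381-184075636), had scores of 529, 697 and 525, ranks of 355, 464 and 802, and 1 window peak in each list. Dusp1, an immediate early gene whose product acts in the nucleus, stood at 84.2, 88.5 and 91.0, and Dusp5, a nuclear ERK phosphatase, at 76.6, 85.2 and 83.8. Both stood higher in each drug list than under DMSO by less than 20 points. Dusp2 and Dusp4, also nuclear, stood at 78.9, 78.9 and 69.4 and at 55.0, 59.1 and 57.5. Dusp16, which acts on JNK and p38, had its start peak at 65.2, 60.1 and 59.2. A peak 7226 bp from the Dusp2 start under DMSO stood at 20.8 under DMSO, at 47.2 in the AZD2014 list and at 14.9 in the rapamycin list.

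The Sprouty and Spred genes encode feedback inhibitors of the path from receptor kinases to ERK. The gene-end peaks of Spry1 and Spry4 stood higher in both drug lists. Spry1 (chr3:37639947-37644599) had start scores of 75.2, 138 and 132, ranks of 12635, 10472.5 and 8909.5, and 3 window peaks in each list. Its percentile went from 26.5 under DMSO to 39.1 under AZD2014 and 48.2 under rapamycin, the latter 21.67 points higher. Its distal peaks differed in other directions: the peak 19658 bp from the start under DMSO stood at 53.1 under DMSO and 21.2 under rapamycin, and the peak 14131 bp from it at 7.74 under DMSO and 33.1 under AZD2014. Spry4 stood at 34.7, 47.9 and 48.7. Spry2, the highest of the group under DMSO (chr14:105891947-105896819), had scores of 239, 278 and 241, ranks of 4088, 5670 and 5023, and 1, 2 and 2 window peaks, and its percentile was lower in both drug lists at 67.0 and 70.8 against 76.2. Spred1 stood at 72.3, 77.0 and 71.9. Spred2 stood at 42.9, 48.2 and 29.4, and its gene-body peak 54704 bp from the start at 12.5, 47.5 and 9.72.

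The GTPase activator genes had a start peak in every list, with no difference past 20 points. Rasa1, which encodes the RAS GTPase activator p120GAP (chr13:85214699-85289486), had scores of 584, 803 and 591 and ranks of 206, 202 and 472. It had 1 window peak in each list, and it ranked highest of the 46 genes under AZD2014. Nf1, which encodes neurofibromin (chr11:79339590-79581609), had scores of 150, 238 and 162, ranks of 7221, 6746 and 7616, and 1, 3 and 2 window peaks. The 2 further Nf1 peaks under AZD2014 lay in the gene body with scores of 57.9 and 56.6, and neither was in the equal-length list.

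Across the gene set, ranks of leading gene-end peaks were centred close to no difference. Their median percentile was 75.9 under DMSO (40 genes), 77.8 under AZD2014 (38 genes) and 71.9 under rapamycin (37 genes), against 71.0, 70.9 and 71.3 for all genes with such a peak. AZD2014 minus DMSO had a median of -0.41 points over 38 genes, with 16 above 0 and 22 below, against 0.30 over 9632 genes. Rapamycin minus DMSO had a median of -0.94 over 37 genes, with 15 above 0 and 22 below, against 0.20 over 9550 genes. AZD2014 minus rapamycin had a median of -0.72 over 37 genes, against 0.09. Past 20 points, Rras2 and Map2k6 stood below DMSO under AZD2014 (background 2.86%), and none stood above (4.90%). Under rapamycin, Rras2 and Map2k6 stood below DMSO (3.70%) and Spry1 above (4.97%). Rras2 and Araf stood lower under AZD2014 than under rapamycin (2.77%), and none stood higher (3.34%).

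**Figure D3:**
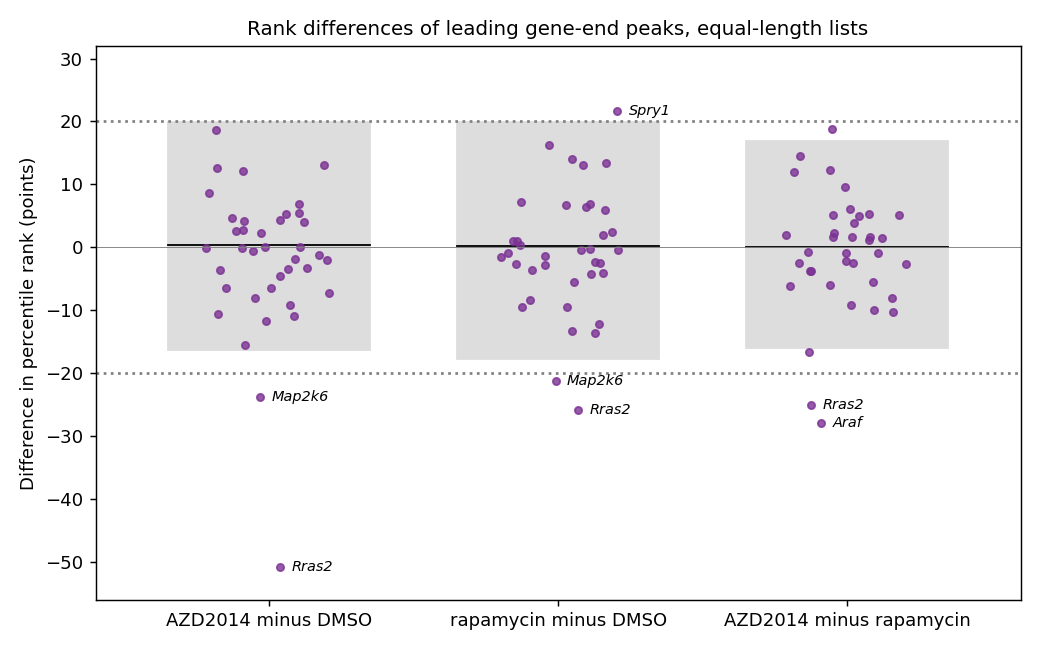
Difference in percentile rank of the leading gene-end peak (vertical axis, percentile points) for each comparison at equal list lengths, with 1 point per gene of the set, spread sideways for legibility. Grey boxes span the 5th to 95th percentile of all genes (-16.32 to 19.87 for AZD2014 minus DMSO) with the median as a line, dotted lines mark 20 points either way, and Rras2 at -50.82 is the lowest point.

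Leading gene-end peaks were wider in the drug lists, in this set as in the whole lists. The median width was 845.5 bp in the DMSO list, 1117 bp in the AZD2014 list and 975 bp in the rapamycin list, against 783, 942 and 906 bp over all genes. The peak was wider under AZD2014 than DMSO for 34 of 39 genes (87.2%, against 85.3% of all genes) and wider under rapamycin than DMSO for 26 of 37 (70.3% against 77.4%).

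Each gene's window took in its body and the flanking 20 kb. Counting each peak once, the 46 windows held 116 peaks under AZD2014, 99 under rapamycin and, under DMSO, 101. At equal list lengths they held 97 and 95 in the drug lists, so the larger number under AZD2014 came from the lower end of its longer list. The median gene had 2 window peaks in each list, against 1 for all genes, and the genes were also longer, with a median of 40882 bp against 17169 bp. The number of window peaks was the same in all 3 lists for 21 of the 46 genes (45.7%), and for 7310 of 15891 protein-coding genes with a window peak in any list. At least 2 more peaks under AZD2014 than DMSO were found for Mapk14, Rps6ka1, Rps6ka4 and Nf1 (background 5.35%), and for no gene of the set at equal list lengths (1.70%). At least 2 more under DMSO than rapamycin were found for Mapk11, Mapk12 and Map3k3 (1.35%), of which the first 2 share their peaks, and at least 2 more under AZD2014 than rapamycin for Mapk11, Mapk12, Mapk14 and Rps6ka1 (4.31%). At equal list lengths no gene of the set passed in the latter comparison (1.32%). No gene of the set had at least 2 more under rapamycin than DMSO (2.14%) or AZD2014 (0.567%).

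**Figure D4:**
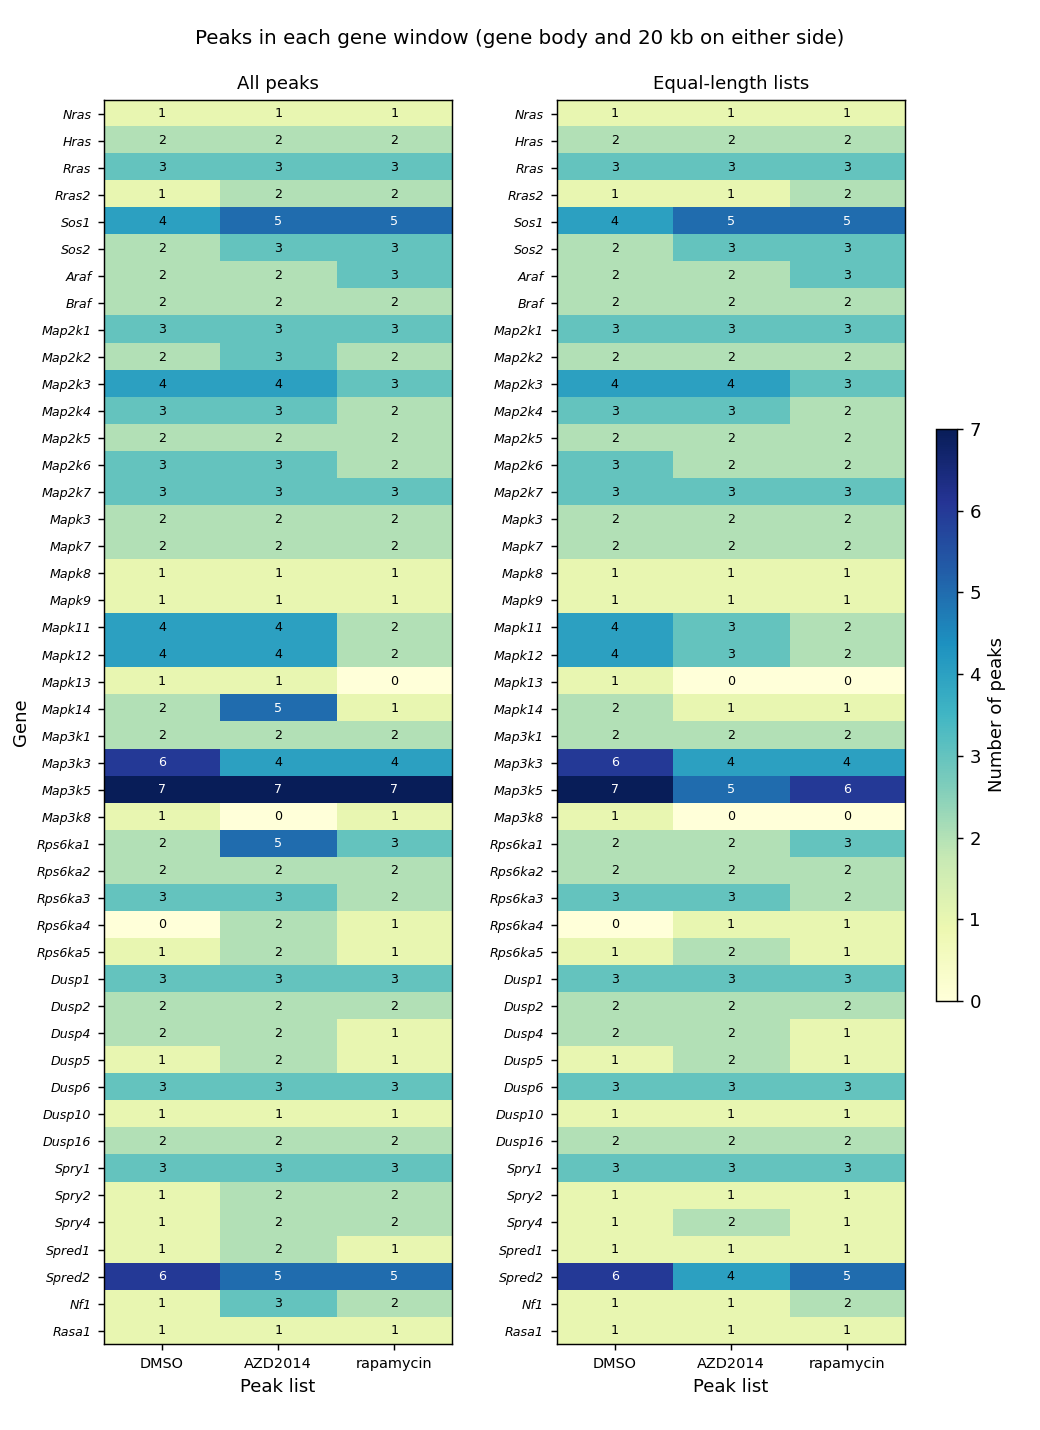
Number of peaks in the window of each of the 46 genes (rows, ordered by role) in the 3 libraries (columns), for all peaks at the left and for equal list lengths at the right, with darker cells for more peaks. Map3k5 has 7 in every list at the left, and Mapk14 and Rps6ka1 reach 5 under AZD2014 at the left and not at the right.

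Gene ends held 43 of 101 window peaks under DMSO, 42 of 116 under AZD2014 and 39 of 99 under rapamycin, and 38 of them in each list had a partner in both other lists. In gene bodies away from the ends, 18 of 24 DMSO peaks, 17 of 34 AZD2014 peaks and 17 of 24 rapamycin peaks had partners in both other lists. Outside the genes these were 32 of 34, 31 of 40 and 32 of 36 peaks. Within this set the share with partners was thus lowest in gene bodies in each list. The same split was not made over all genes, so whether it is particular to this set is not known. The median score was 216, 293 and 241 at gene ends, 99.5, 97.2 and 104 in gene bodies and 91.8, 129 and 104 outside. Of the DMSO window peaks, 97.0% (95% Wilson interval 91.6 to 99.0, counting error only) overlapped an AZD2014 peak, against 88.9% of all DMSO peaks. A rapamycin peak overlapped 87.1% of them (79.2 to 92.3), against 83.2%. Of the AZD2014 window peaks, 81.9% (73.9 to 87.8) overlapped a DMSO peak, against 70.9% of the whole list, and of the rapamycin window peaks 87.9% (80.0 to 92.9), against 77.8%. Merged over the lists, the windows held 123 regions, of which 86 (69.9%) had a peak in every list, against 54.7% of all 24981 regions. A further 13 regions had a peak under AZD2014 alone (10.6% against 16.0%), 4 under rapamycin alone (3.25% against 7.42%), 8 under both drugs and not DMSO (6.50% against 8.63%), 9 under DMSO and AZD2014 and not rapamycin (7.32% against 5.63%) and 3 under DMSO alone (2.44% against 5.80%). At equal list lengths there were 111 regions, 85 of them with a peak in every list (76.6% against 59.5%). Another 4 had one under AZD2014 alone (3.60% against 7.57%) and 2 under both drugs and not DMSO (1.80% against 6.29%). A peak under DMSO alone was held by 6 (5.41% against 9.38%) and one under rapamycin alone by 7 (6.31% against 8.60%). The shares over all peaks and all regions took them wherever they lay, without matching for nearness to gene ends. Whether more sharing is particular to these genes is therefore not known.

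Among overlapping window peaks at equal list lengths, 12 of 94 pairs stood higher under AZD2014 than DMSO by more than 20 points (12.8%, background 7.52%) and 7 stood lower (7.45%, background 6.38%). Under rapamycin 8 of 88 stood higher (9.09%, background 7.96%) and 5 lower (5.68%, background 6.44%). With a reciprocal overlap of 50%, the numbers above DMSO were 5 for AZD2014 and 4 for rapamycin, and those below were 7 and 4. No number of pairs and no background share is given for that setting, so these numbers cannot be set beside the shares above. Between the drugs, 5 of 87 stood higher under AZD2014 (background 5.41%) and 5 lower (background 5.34%). Pairs of 1 gene share their source: 3 of the 12 belonged to Map3k3 and 2 to Spred2. Peaks that passed 20 points in the same direction for both drugs were those described above at Mapk7, Dusp6, Map3k3 and the Map2k5 start, which stood higher, and at Map3k5, Rras2 and Map2k6, which stood lower. Both drugs share the DMSO library in this comparison.

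A list of 40 other pathway genes took in adaptors, further MAP3 and MAP4 kinases, phosphatases and nuclear targets, among others. Gene-end peaks were present for 35 of them in the DMSO list, 36 in the AZD2014 list and 35 in the rapamycin list. The shares over all genes were 45.97%, 49.5% and 46.9%. Elk3, an ETS factor that ERK phosphorylates, had a gene-end peak in both drug lists and not under DMSO (background 4.63% and 3.05%). Il17rd, a feedback inhibitor of receptor kinase signalling, had one under DMSO and AZD2014 and not rapamycin (2.09% and 3.79%). Each was the 1 gene of the 40 in its comparisons. Rasgrp1, Dusp3, Dusp14 and Srf had none in any list (background 48.5%). The leading gene-end peaks of this list had median differences of 2.92 points for AZD2014 minus DMSO and 0.40 for rapamycin minus DMSO. Over all genes these were 0.30 and 0.20. Rasal3, which encodes a RAS GTPase activator of blood cells, went from a score of 53.1 under DMSO to 285 under AZD2014 and 339 under rapamycin, differences of 64.11 and 79.00 points, larger than any in the set of 46. Rasal3 was named after its values were seen. Past 20 points, Rasal3 was the 1 gene of 35 above DMSO under AZD2014 (background 4.90%), and Grb2 and Dusp8 stood below (2.86%). Under rapamycin 3 of 33 stood above DMSO (Map3k4, Rasa2 and Rasal3, background 4.97%) and 3 below (Gab1, Lztr1 and Etv4, 3.70%).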

How the data were processed

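ATAC-seq was run on 3 libraries of cultured HSCs, 1 per condition. CASAVA and build mm10 are named in the submitters' processing notes. The peak names in the deposited files carry the word MACS. The aligner, caller settings, duplicate removal, treatment of mitochondrial DNA and transposase offset set the number and width of weak peaks and were not given in the sources used here. The authors deposited 1 peak list per library with a score per peak, and this score is the authors' own value, used here to rank peaks within a list. Peaks were therefore called per library and not on pooled samples. Start positions count from 0 in the files and are written from 1.

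Gene ranges came from the RefSeq table of GRCm38.p6, which holds no exons, so exonic and intronic peaks were not separated. Starts, strands and promoter sequences came from RefSeq promoters of the same assembly, which matched 41 of the 46 genes. Gene ends reached 1000 bp to either side, windows 20 kb, and overlaps needed 1 bp. Tied scores took their mean rank. The members, gene lists and markers were chosen with earlier results of these data known, and some of the markers are not reported here. Full values were given for genes whose gene-end status differed between lists, whose window count differed by 2 or more between a drug and DMSO, whose rank differed by more than 20 points, and for the highest DMSO rank in each role. Start-peak ranks and the ranks of overlapping peaks were added after the data were seen, and other peaks and genes were named after their values were seen. Alternatives were lists of equal length, the upper 50% of scores, gene ends of 500 or 2500 bp or starts alone, windows of 50 kb or the gene body, a reciprocal overlap of 50% or a distance of 500 bp, leading window peaks and percentiles of full lists. The code was tested on simulated data. Scripts ran in Python 3.11.15 with scipy 1.17.1, pandas 2.3.3, matplotlib 3.10.9 and numpy 2.4.6.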

Additional observations from a re-analysis of the deposited data

How the results depend on the processing

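No paired analysis was possible because each condition had 1 library, and for the same reason no library could be left out. The numbers of genes with a gene-end peak stayed within 1.5 times their main value under every alternative run, but the small counts of genes that differ between lists did not. Under AZD2014 and not DMSO, 0 genes had a gene-end peak (background 4.63%). In the upper 50% of scores 3 did (background 5.86%), at 2500 bp 1 (5.07%) and at starts alone 2 (4.29%). Those under DMSO and not AZD2014 numbered 1 (1.09%), and 2 at equal list lengths (1.96%) and 0 at starts (0.966%). In the upper 50% the number was also 1 (0.640%), but the gene was Rras2 in place of Map3k8. Those under rapamycin and not DMSO numbered 0 (3.05%), and 2 in the upper 50% (3.62%) and 1 at starts (2.92%). Those under DMSO and not rapamycin numbered 3 (2.09%), and 1 at 2500 bp (503 of all 21887 genes) and 1 at starts (1.97%). In the upper 50% the number was also 3 (1.85%), but these were Rras2, Sos2 and Map3k5. Mapk11, Mapk12 and Map3k8 had no gene-end peak in any list there. At 2500 bp Map3k8 had a gene-end peak under rapamycin. Those under AZD2014 and not rapamycin numbered 2 (3.79%), and 1 at equal lengths (2.53%) and 1 at 500 bp (3.47%). In the opposite sense they numbered 0 (1.21%), and 1 at 2500 bp (1.39%).

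Window peaks numbered 53, 65 and 56 for DMSO, AZD2014 and rapamycin in the upper 50%, 63, 73 and 61 in gene bodies alone, and 159, 176 and 152 with 50 kb, by construction of the windows. A reciprocal overlap of 50% lowered the share of DMSO window peaks with an AZD2014 partner from 97.0% to 85.1%. Over all DMSO peaks it went from 88.9% to 82.6%. A rapamycin partner was then held by 80.2% of DMSO window peaks, against 78.8% of all DMSO peaks. A DMSO partner was held by 74.1% of AZD2014 window peaks (background 66.6%) and 81.8% of rapamycin window peaks (74.3%). The numbers of overlapping peaks that stood above DMSO by more than 20 points fell to 5 for AZD2014 and 4 for rapamycin. Those below numbered 7 and 4, and no background is given for these numbers. Equal list lengths raised the share of AZD2014 window peaks with a partner to 93.8% in DMSO (background 82.3%) and 89.7% in rapamycin (84.0%).

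Percentiles of the full lists place peaks of a longer list higher by construction. With them, 3 of 39 genes stood above DMSO under AZD2014 (background 11.1%) and 1 below (0.804%). Under rapamycin 2 of 37 stood above DMSO (6.43%) and 1 below (2.52%). For AZD2014 against rapamycin, 1 of 37 stood above (6.54%) and 0 below (0.859%). The median differences turned positive, 2.499 points for AZD2014 minus DMSO and 2.22 for AZD2014 minus rapamycin, against 4.44 and 2.81 over all genes. With the leading window peak, 0 genes stood above DMSO under rapamycin (background 3.75%) and 1 below rapamycin under AZD2014 (2.49%). With start peaks, an alternative chosen after seeing the data, 1 gene (Map2k5) stood above DMSO under AZD2014 (background 4.66%). Under rapamycin 3 did (Map2k5, Map3k1 and Spry1, background 4.80%), and 1 gene stood below rapamycin under AZD2014 (2.69%). The cause of the other changes was not tested. Unknown depth limits every statement that a peak is missing from a list.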
